A study of Mus musculus with 12 samples.

Results

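The interferon-stimulated and JAK-STAT genes of 3 mouse melanocytic lines were followed here: 55 genes, chosen by symbol from the 34513 genes in the deposited count table. They comprise 4 interferon receptor genes, 3 receptor-associated kinases with the feedback inhibitor Socs1, 9 STAT and IRF transcription factors, 8 sensors and editors of nucleic acids, 15 antiviral effectors, 7 genes of the ISG15, ubiquitin and ADP-ribose system, 5 interferon-inducible GTPases and 3 other interferon-induced genes. All 55 had a row in the table, and 54 passed the expression filter of the test. Ifitm1, which encodes an antiviral membrane protein, did not pass, with between 0 and 6 counts in every library.

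The libraries were made from cultures of Melan-A, a non-tumorigenic melanocyte line, and of the tumorigenic melanoma lines B16F0 and B16F10. Each line was sampled untreated and with SX-682, an antagonist of the chemokine receptors CXCR1 and CXCR2, and each of the 6 groups had 2 libraries. No dose or time of SX-682 is given for these cultures in the sources used here, the controls are given as untreated, and the lines differ in origin and history as well as in tumorigenicity. Nothing says that the 2 libraries of a group came from separate cultures, so p-values measure the spread between these libraries, which may be technical.

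Interferons signal through paired receptor chains, IFNAR1 with IFNAR2 for type I and IFNGR1 with IFNGR2 for type II, to which the kinases JAK1, JAK2 and TYK2 are bound. STAT2 joins IRF9 in the ISGF3 complex after type I interferon, and this complex binds the interferon-stimulated response element (ISRE), while STAT dimers bind the gamma-activated site (GAS). The induced genes encode antiviral proteins, and several of them (Irf7, Irf9, Usp18, Socs1) encode parts of the pathway's own amplification or shut-off.

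Sequence upstream of the members was examined first. The members were chosen by symbol, not by sequence, but as genes of a pathway that acts through the ISRE and GAS. An excess of these cores is therefore not independent of the choice. RefSeq promoter entries (GRCm38.p6) were matched by symbol for 47 members, and 8 had none: Ifi27, Mx1, Mx2, Oas2, Parp14, Parp9, Usp18 and Zbp1. The gene start used here was that of the RefSeq entry, which can differ from the gene coordinates in the count table. In the 250 bases before it, both strands were searched for the ISRE core, GAAA and again GAAA after any 2 bases, and the GAS core TTCNNNGAA. An ISRE core read on the other strand and a GAS core can share a TTC or a GAA, so a few bases may count for both. The ISRE core was held by 17 of the 47 (36.2%), against 936 of 27025 genes with an entry (3.46%). The GAS core was held by 10 of 47 (21.3%), against 2197 of 27025 genes (8.13%), and Bst2, Gbp7, Igtp, Irf2 and Oas1a held both. A match is a run of letters and not a measured binding site.

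Isg15, the ubiquitin-like modifier, is shown in full because it has 3 overlapping matches, at 78 to 69, 72 to 63 and 66 to 57 bases before its start (chr4:156200819-156201068, minus strand, GRCm38.p6; capitals mark the run of ISRE cores).
Isg15: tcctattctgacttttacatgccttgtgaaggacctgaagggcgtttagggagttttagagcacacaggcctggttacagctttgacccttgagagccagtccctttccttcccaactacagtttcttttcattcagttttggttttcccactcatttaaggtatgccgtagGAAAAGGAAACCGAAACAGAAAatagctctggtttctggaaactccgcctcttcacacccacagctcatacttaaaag

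The windows of 30 bases around the match nearest the gene start are shown for members whose values are described later, so that genes that moved differently can be compared. Ifit3b is printed beside its neighbour Ifit3, and its own values are not described in the text. Each is on the strand of its gene, with matches in capitals, and TTTC repeated after 2 bases is the core read on the other strand. By the gene coordinates of the count table, the Irgm1 window lies inside the gene and the Gbp2 window runs past the gene start. Ifit1, Ifit3 and Ifit3b are neighbours on chromosome 19, and the last 2 of these have the same 30 bases.
Ifit1 (chr19:34640794-34640823, plus): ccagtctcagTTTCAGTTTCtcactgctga
Ifit3 (chr19:34583397-34583426, plus): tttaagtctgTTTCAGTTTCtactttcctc
Ifit3b (chr19:34607793-34607822, plus): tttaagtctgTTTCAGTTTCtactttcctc
Rsad2 (chr12:26456553-26456582, minus): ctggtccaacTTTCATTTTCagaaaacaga
Bst2 (chr8:71537577-71537606, minus): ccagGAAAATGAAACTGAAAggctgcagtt
Stat2 (chr10:128270266-128270295, plus): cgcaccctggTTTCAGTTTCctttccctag
Irgm1 (chr11:48871425-48871454, minus): tcaaGAAATAGAAACCGAAActgattctca
Gbp2 (chr3:142620594-142620623, plus): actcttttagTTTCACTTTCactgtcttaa
Socs1 (chr16:10785594-10785623, minus): gccgGAAAGAGAAACCGAAAgcgggggtgg

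Library depth ran from 48876982 to 85322092 counts on genes, and values are given as CPM, counts scaled by library size to a common total. A floor of 3 counts in a library equals 0.033 to 0.062 CPM. Replicates differed by more than counting noise in every group (chi-square per gene 2.87 to 5.25), so each library was counted as a sample. Melanocyte markers were checked in all lines: in untreated Melan-A, Sox10 was at 655 and 685 CPM, above both B16 lines (445 to 589 CPM). The other 6 of the 7 markers were lower in untreated Melan-A than in either B16 line. Tyr, the enzyme that starts melanin synthesis, was at 0.892 and 0.759 CPM against 516 and 513 in B16F0 and 70.4 and 65.8 in B16F10, and Pmel, the melanosome fibril protein, was at 7.53 and 8.69 against 4470 to 5350. Tyrp1 was at 105 and 108 CPM against 6420 to 8370, and Dct at 358 and 351 against 5660 to 8680. The line named as melanocytes thus had very little of 2 defining pigment cell markers.

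Members were compared between untreated lines first. In untreated cells the interferon-stimulated genes were far higher in Melan-A than in either B16 line. The 55 genes together took 3770 to 3780 CPM in untreated Melan-A, 1270 to 1280 CPM in B16F0 and 1400 to 1410 CPM in B16F10. The 4 highest members by mean CPM over all libraries were Bst2, Ifi27, Jak1 and Stat3. Without them the order of the B16 lines was the other way round, at 837 to 843 CPM in B16F0 and 797 to 798 in B16F10. Of the 54 tested, 44 were lower and 6 higher in B16F0 than in Melan-A (all genes tested: 40.6% lower and 35.3% higher), with a median log2 difference of -2.35 against -0.06 over all genes. In B16F10, 42 were lower and 8 higher than in Melan-A (all genes: 40.8% lower and 33.4% higher), with a median of -2.15 against -0.10. The 40 members lower in both B16 lines came from every role group, and 14 of them were lower by a log2 difference of at least 4 in both. Higher in both B16 lines were 5 members, Ifngr2, Jak1, Tyk2, Trim25 and Gbp7. The share of all genes called in both B16 lines was not computed, so these joint counts describe the members only. The comparisons with Melan-A share its 2 control libraries and are not independent of each other. In these bulk libraries, fewer cells that express a gene and less RNA of it per cell cannot be told apart.

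Markers of other cell types also differed between the untreated lines. The 6 fibroblast markers summed to 114 to 115 CPM in Melan-A, 16.1 to 16.7 in B16F0 and 8.44 to 9.71 in B16F10, and members went both ways, with 4 lower and 2 higher in B16F0 than in Melan-A and 5 lower and 1 higher in B16F10. Col3a1 was at 54.8 and 53 CPM in Melan-A against 0.178 or less in the B16 controls, and Col1a1 at 45.7 and 47.1 against 2.50 to 5.86. Col1a2 was lower in Melan-A, at 0.614 and 0.913 CPM against 2.36 and 2.35 in B16F0 and 4.50 and 5.79 in B16F10, and Pdgfra was at 4.38 and 3.62 against 8.38 and 7.84 in B16F0 and 1.24 and 1.42 in B16F10. The 6 keratinocyte markers summed to 5.50 to 6.03 CPM in Melan-A, with 0 in B16F0 and 0.360 to 0.479 in B16F10. The leukocyte list summed to 18.3 to 18.5 CPM in Melan-A, 10.4 to 12.4 in B16F0 and 25.6 to 26.9 in B16F10, nearly all of it Cd68, while Ptprc, the marker all leukocytes share, was at 0.255 CPM or less in every untreated library. Their part in the difference between lines was not tested.

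**Figure D1:**
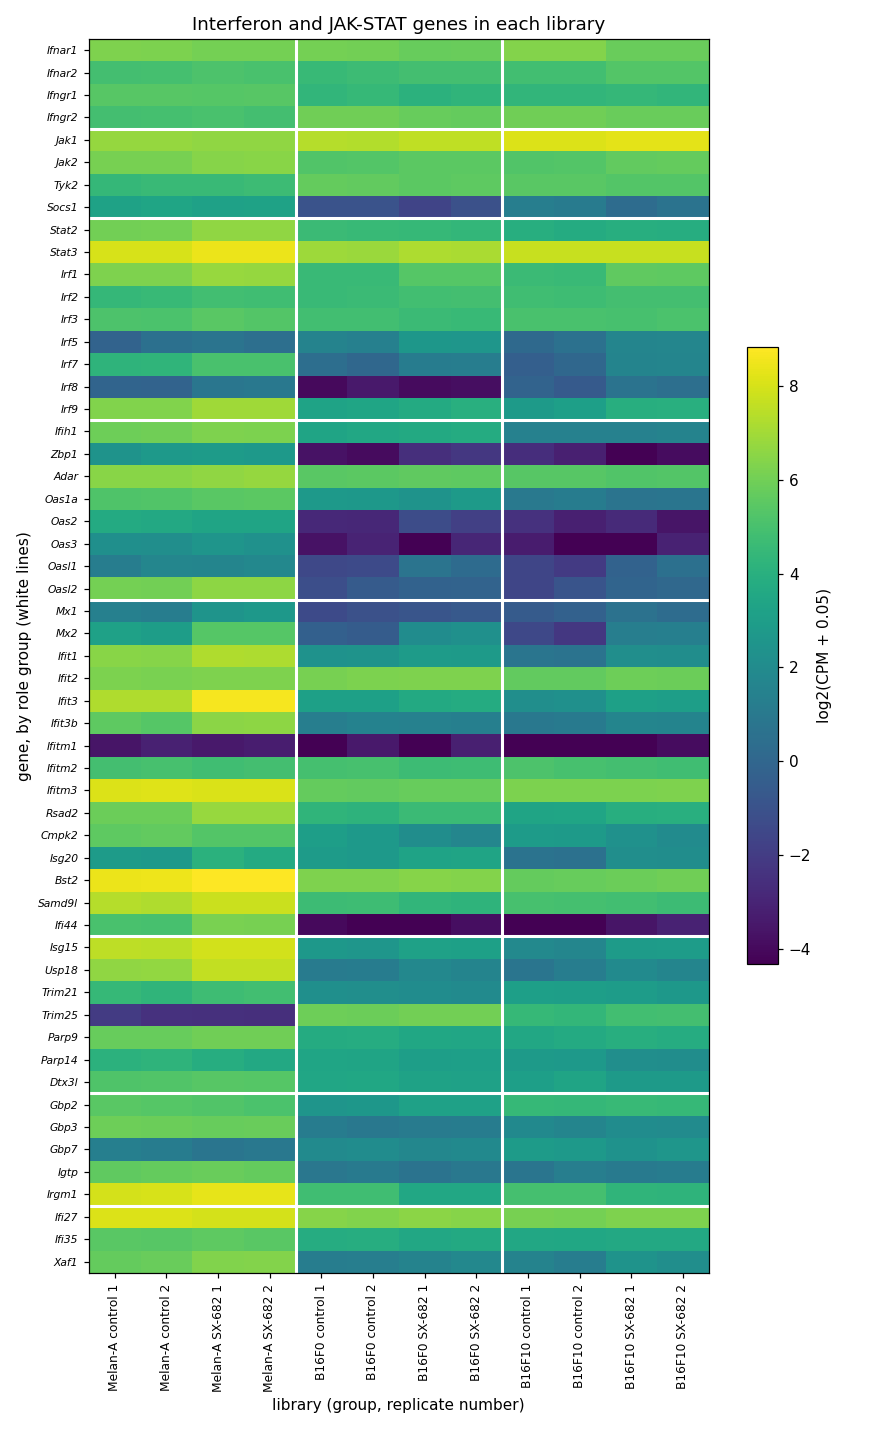
Level of the 55 members in each of the 12 libraries, as log2(CPM + 0.05), with genes in rows by role group and libraries in columns by line. Most rows are brightest in the 4 Melan-A libraries, where the members sum to 3770 CPM or more, and Trim25 has the opposite pattern.

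Receptor and kinase genes differed from Melan-A in both directions. Ifnar1 was at 78.7 and 76.1 CPM in untreated Melan-A, 66.8 and 65.1 in B16F0 and 82.3 and 82.8 in B16F10. Ifnar2 was at 29.6 and 30.2 CPM in Melan-A, against 22.7 and 25.8 in B16F0 and 28.9 and 29.0 in B16F10. For both chains of the type I receptor the lines lay close together: the largest difference from Melan-A was a log2 difference of -0.31 for Ifnar2 in B16F0 (SE 0.055, adjusted p = 1.4e-05). Among the type II chains, Ifngr1 was at 41.7 and 42.5 CPM in Melan-A and between 19.9 and 22 in the 4 B16 controls, and Ifngr2 was at 29.2 and 31.0 against 61.7 to 63.6. Those differences were of like size in opposite directions, with log2 differences for Ifngr1 of -1.01 in B16F0 and -1.07 in B16F10 (SE 0.057 and 0.058) and for Ifngr2 of 1.05 and 1.06 (SE 0.045 each).

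Of the kinases, Jak1, which serves both receptor types, was at 106 and 107 CPM in Melan-A, with 161 and 156 in B16F0 and 282 and 277 in B16F10. Its log2 difference from Melan-A was 0.58 in B16F0 (SE 0.027, adjusted p = 3.7e-18) and 1.39 in B16F10 (SE 0.026, adjusted p = 6.7e-28), and the lines did not overlap. Tyk2, the partner of IFNAR1, was at 21.6 and 23.8 CPM in Melan-A and at 43.3 to 52.8 in the B16 controls, a log2 difference of 1.2 in B16F0 and 0.95 in B16F10. Jak2, used by the type II receptor, was lower in B16, at 70.1 and 70.5 CPM in Melan-A and 38.2 to 39.4 in the B16 controls. Socs1, the feedback inhibitor of these kinases, was at 9.48 and 10.7 CPM in Melan-A, with 0.467 and 0.461 in B16F0 and 2.43 and 2.14 in B16F10. It was thus lowest in B16F0, with a log2 difference from Melan-A of -4.44 (SE 0.18) there and -2.14 (SE 0.14) in B16F10.

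Of the 9 transcription factors 7 were lower in B16F0 than in Melan-A and 5 in B16F10, with 1 higher in each (all genes: 40.6% and 40.8% lower, 35.3% and 33.4% higher). Irf7, which amplifies type I interferon induction, was at 18.8 and 19.2 CPM in Melan-A, against 1.28 and 0.981 in B16F0 and 0.744 and 1 in B16F10. The B16 lines overlapped each other and lay 16.7-fold and 21.7-fold below Melan-A. Irf9, the DNA-binding part of ISGF3, was at 80.3 and 80.1 CPM in Melan-A, with 9.84 and 10.6 in B16F0 and 7.04 and 8.54 in B16F10, which is 7.87-fold and 10.3-fold lower. Stat2 was 2.72-fold lower in B16F0 and 4.61-fold lower in B16F10 than in Melan-A, where it was at 65.0 and 66.6 CPM. Irf1, a factor common to both interferon types, was 3.25-fold and 3.14-fold lower. Irf5, a factor of the Toll-like receptor pathway, went the other way in B16F0 alone among the untreated lines, at 2.84 and 2.60 CPM against 0.868 and 1.39 in Melan-A and 1.06 and 1.42 in B16F10 (log2 difference of B16F0 from Melan-A 1.27, SE 0.21, adjusted p = 2.7e-06; 14.1% of its exonic bases overlap Tnpo3 on the opposite strand).

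The sensors had the lowest median of the role groups, a log2 difference from Melan-A of -4.78 in B16F0 and -5.30 in B16F10. In each line 8 of 8 were lower. Over all genes 40.6% were lower in B16F0 and 40.8% in B16F10, and the share lower in both was not computed. Oas2, an oligoadenylate synthetase that activates RNase L, had 1118 and 1110 counts in untreated Melan-A, 7 and 6 in B16F0 and 8 and 4 in B16F10, which is 135-fold and 128-fold lower. Oasl2, an OAS-like protein, was at 67.5 and 66.0 CPM in Melan-A, against 0.400 and 0.624 in B16F0 and 0.281 and 0.485 in B16F10. The B16 lines overlapped each other in both genes, and Oasl2 was 131-fold lower in B16F0 and 172-fold lower in B16F10 than in Melan-A. Zbp1, a sensor of Z-form nucleic acids, had 468 and 609 counts in Melan-A and 2 and 1 in B16F0, a ratio of 288 (95% counting interval 98.2 to 1400), and 7 and 4 in B16F10. Ifi44, an interferon-induced protein, had 2813 and 2935 counts in Melan-A, with 1 and 0 in B16F0 and 0 and 0 in B16F10. It was at least 672-fold lower in B16F10 against the floor of 3 counts per library. Oas3 had 399 and 409 counts in Melan-A and 0 to 5 in the B16 controls.

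Isg15 (chr4:156199455-156200796), whose promoter is printed above, was at 183 and 178 CPM in untreated Melan-A, 6.47 and 5.83 in B16F0 and 3.60 and 3.25 in B16F10. The 3 lines did not overlap, and the level was 29.3-fold lower in B16F0 and 52.7-fold lower in B16F10 (log2 differences -4.87, SE 0.047, and -5.72, SE 0.053). Usp18, which removes ISG15 from proteins and restrains the type I receptor, was at 100 and 103 CPM in Melan-A, with 2.15 and 2.20 in B16F0 and 1.69 and 2.33 in B16F10. Here the B16 lines overlapped each other, 46.8-fold and 50.4-fold under Melan-A. Ifit1, which binds viral RNA caps, was at 88.7 and 85.0 CPM in Melan-A, against 5.19 and 5.34 in B16F0 and 1.69 and 1.58 in B16F10, and the lines were again separate. Ifit3, its partner, was at 154 and 151 CPM in Melan-A, with 8.74 and 8.70 in B16F0 and 4.43 and 4.80 in B16F10. Ifit3 shares 51.2% of its 50-base stretches with Ifit3b, so reads could be split between this pair.

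Trim25, a ubiquitin ligase that activates the RNA sensor RIG-I, stood against the rest. It had 17 and 12 counts in untreated Melan-A, 4546 and 3988 in B16F0 and 1323 and 1331 in B16F10. Both B16 lines lay far above Melan-A, by 363-fold in B16F0 and 129-fold in B16F10 (log2 differences 8.50, SE 0.10, and 7.01, SE 0.12). Gbp7, a guanylate-binding protein, was also higher in B16, at 2.51 and 2.27 CPM in Melan-A, against 3.90 and 4.07 in B16F0 and 7.32 and 6.52 in B16F10. The other GTPases followed the main pattern: Irgm1 (chr11:48861968-48871683), which acts on vacuoles of intracellular pathogens, was at 252 and 256 CPM in Melan-A, with 27.4 and 27.4 in B16F0 and 30.5 and 30.9 in B16F10. Gbp2 was at 44.2 and 41.3 CPM in Melan-A, against 5.77 and 6.21 in B16F0 and 22 and 21.8 in B16F10, so that the B16 lines differed by 3.66-fold.

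**Figure D2:**
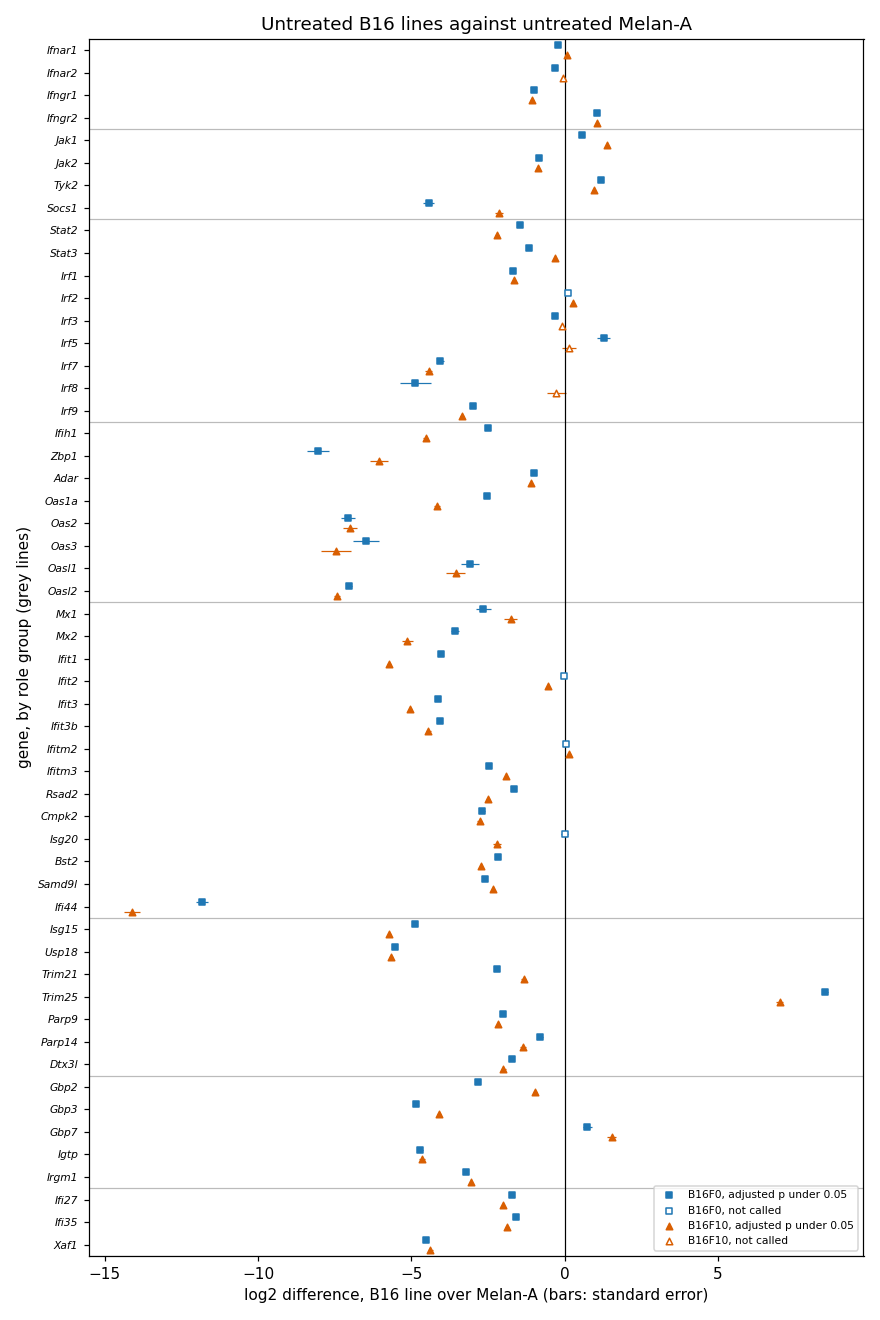
Log2 difference of each untreated B16 line from untreated Melan-A for the 54 members tested, by role group (points, fitted difference; bars, standard error; filled, adjusted p under 0.05). Points lie left of 0 for 44 members called in B16F0 and 42 in B16F10, Trim25 lies far to the right, and the fitted values of Ifi44, Zbp1 and Oas3 rest on B16 groups at or near the floor.

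Levels of different genes were compared per kilobase of gene length. In untreated Melan-A the levels of Ifitm3, Bst2, Isg15 and Ifi27 were the highest of the members, at 420, 389, 257 and 190 CPM per kilobase. Ifitm3 blocks viral entry and Bst2 (tetherin) holds budding virions at the cell surface. In B16F0 the first was Bst2 at 85.1 CPM per kilobase, followed by Ifitm3 at 75.3, Ifi27 at 57.1 and Ifitm2 at 47.2. In B16F10 the order was Ifitm3 at 111, Bst2 at 58.6, Ifitm2 at 51.4 and Ifi27 at 46.9. Of the exonic bases of Ifitm2, 40.9% overlap Gm45717 on the same strand, and 48.5% of its 50-base stretches are shared with other genes. The level and rank of Ifitm2 may therefore be affected by how shared reads were counted. By level per kilobase, Isg15 was thus among the 4 highest members in Melan-A and not in the B16 lines.

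Untreated B16F10 and B16F0 differed less from each other. Of the 54 members, 17 were higher and 22 lower in B16F10 than in B16F0 (all genes: 30.8% higher and 31.2% lower), with a median log2 difference of -0.11. Isg20, an exonuclease of single-stranded RNA, was at 7.30 and 6.76 CPM in B16F0 and 1.57 and 1.47 in B16F10, which is 4.63-fold lower, while in Melan-A it was at 7.25 and 6.82 CPM. Isg20 in B16F0 thus overlapped Melan-A, and B16F10 alone was low. Among the effectors 8 of 14 were lower in B16F10 and 3 higher, and among the GTPases 4 of 5 were higher and 0 lower.

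SX-682 was then compared with no treatment within each line, to ask how the members respond to the CXCR1 and CXCR2 antagonist in the cells themselves. More members rose than fell in every line, and most rises were small. In Melan-A 32 of 54 were higher and 9 lower (all genes: 23.4% higher and 24.7% lower), with a median log2 fold change of 0.24 against 0 over all genes. Without the second SX-682 library of Melan-A, 5 were lower. In B16F0 27 were higher and 14 lower (all genes: 25.1% higher and 25% lower), median 0.12, and in B16F10 27 were higher and 12 lower (all genes: 25.5% higher and 25.3% lower), median 0.16. The summed level of the 55 genes went from 3770 to 3780 CPM to 4910 to 4940 in Melan-A, from 1270 to 1280 to 1350 to 1360 in B16F0, and from 1400 to 1410 to 1490 to 1500 in B16F10. Without Bst2, Ifi27, Jak1 and Stat3 the sum went from 2770 to between 3760 and 3790 CPM in Melan-A, from 837 to 843 to 851 to 857 in B16F0, and from 797 to 798 to 832 to 842 in B16F10.

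In all 3 lines 16 members were higher with SX-682 (29.6%, against 11.3% of all genes tested). They were Ifnar2, Jak2, Irf1, Irf2, Irf7, Irf9, Oasl2, Mx2, Ifit1, Ifit3, Rsad2, Isg20, Bst2, Isg15, Usp18 and Xaf1. The call in 1 of the lines was lost without a library for Ifnar2 (Melan-A, log2 fold change 0.14 without SX-682 replicate 1, adjusted p = 0.084), Oasl2 (B16F0, 0.44 without control replicate 1, adjusted p = 0.20) and Xaf1 (B16F0, 0.39 without control replicate 1 and 0.30 without SX-682 replicate 2, adjusted p = 0.06 and 0.12). The same held for Irf2 in B16F10 (0.14, adjusted p = 0.034), at 0.09 without control replicate 2, 0.12 without SX-682 replicate 1 and 0.16 without SX-682 replicate 2 (adjusted p = 0.34, 0.18 and 0.073). Lower in all 3 lines were Ifnar1, Cmpk2 and Parp14 (5.56% of members, against 11.7% of all genes). Calls in opposite directions were made for 13 members (24.1%, against 9.59% of all genes), and Oas3, Gbp3 and Igtp were called in none of the lines (5.56%, against 29.4%). The 3 lines have separate libraries, so these comparisons share no controls.

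**Figure D3:**
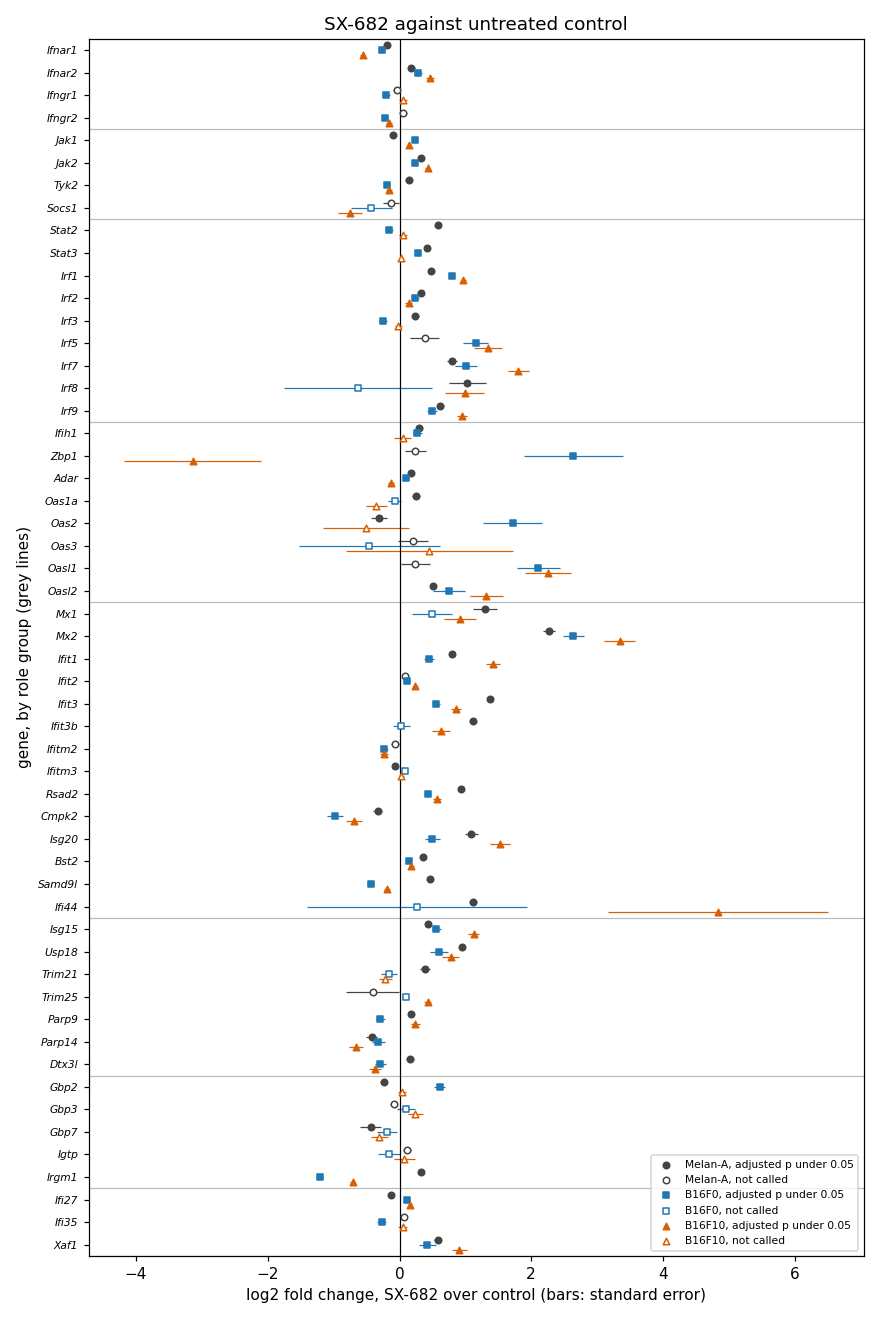
Log2 fold change with SX-682 for the 54 members tested in Melan-A (circles), B16F0 (squares) and B16F10 (triangles), by role group, with standard errors (filled, adjusted p under 0.05). Mx2 rises most among the members expressed in all lines, 16 members are filled right of 0 in all 3 lines, and Irgm1 lies right of 0 in Melan-A and left of it in both B16 lines.

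Mx2, a dynamin-like antiviral GTPase, rose most among members well above the floor. It was at 9.15 and 7.85 CPM in untreated Melan-A and 40.3 and 41.5 with SX-682. In B16F0 it went from 0.761 and 0.654 to 4.17 and 4.73 CPM, and in B16F10 from 0.314 and 0.172 to 2.44 and 2.48. No treated library overlapped a control, and the fold changes were 4.82 in Melan-A, with 6.22 in B16F0 and 10.1 in B16F10 (log2 2.27, 2.64 and 3.34, with SE 0.087, 0.16 and 0.23 and adjusted p = 4.7e-19, 2.1e-14 and 3.3e-13). The annotation gives Mx2 (chr16:97535308-97560900) as a polymorphic pseudogene, and 6.55% of its 50-base stretches are shared with Mx1. Even with SX-682, Mx2 in the B16 lines stayed under its level in untreated Melan-A.

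Irf7 (chr7:141262706-141266481) rose from 18.8 and 19.2 to 32.8 and 33.4 CPM in Melan-A, from 1.28 and 0.981 to 2.28 and 2.31 in B16F0 and from 0.744 and 1 to 3.03 and 3.06 in B16F10. The treated libraries lay above the controls in every line, with log2 fold changes of 0.80 (SE 0.076), 1.01 (SE 0.16) and 1.80 (SE 0.16). Irf1 rose by log2 fold changes of 0.48, 0.79 and 0.97 in Melan-A, B16F0 and B16F10 (SE 0.036 to 0.045), reaching 109 and 107, 41.3 and 40.8, and 49.4 and 46.8 CPM. Irf9 rose by 0.62, 0.49 and 0.95 on the log2 scale (SE 0.049 to 0.081). Irf5 rose in the B16 lines, from 2.84 and 2.60 to 6.21 and 5.96 CPM in B16F0 and from 1.06 and 1.42 to 3.08 and 3.21 in B16F10. In Melan-A its libraries overlapped, at 0.868 and 1.39 untreated and 1.60 and 1.35 with SX-682 (log2 fold change 0.38, SE 0.22, adjusted p = 0.16).

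By role, the transcription factors had 8 of 9 members higher and 0 lower in Melan-A, 6 higher and 2 lower in B16F0, and 6 higher and 0 lower in B16F10. The antiviral effectors had 10 of 14 higher and 2 lower in Melan-A, 7 and 3 in B16F0, and 10 and 3 in B16F10. Of the 8 sensors and editors, 4 were higher and 1 lower in Melan-A, 6 higher and 0 lower in B16F0, and 2 of each in B16F10. Of the 4 receptor genes 1 was higher in each line, and 1, 3 and 2 were lower in Melan-A, B16F0 and B16F10. The kinases with Socs1 had 2 of 4 higher in each line, and 1, 1 and 2 lower. The ISG15 group had 5 of 7 higher and 1 lower in Melan-A, 2 and 3 in B16F0, and 4 and 2 in B16F10. Of the 5 GTPases, 1 was higher and 2 lower in Melan-A, 1 and 1 in B16F0, and 0 and 1 in B16F10. Of the 3 other induced genes, 1 was higher and 1 lower in Melan-A, 2 and 1 in B16F0, and 2 and 0 in B16F10. Over all genes, 23.4% were higher and 24.7% lower in Melan-A, 25.1% and 25% in B16F0, and 25.5% and 25.3% in B16F10. The receptor counts higher in each line and lower in Melan-A are near those shares. So are the sensor counts in B16F10, the GTPase counts in B16F0 and the kinase counts lower in Melan-A and B16F0. Also near the shares are the ISG15 group higher in B16F0 and lower in B16F10, and the transcription factors lower in B16F0. Effectors lower in B16F0 and B16F10, and GTPases higher in Melan-A and lower in B16F10, are near them too. Among the 3 other induced genes, a count of 1 is the count closest to the shares. The receptors lower in B16F0 (3 of 4) and B16F10 (2 of 4) are above the shares, in a group of only 4 genes.

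Isg15 rose with SX-682 from 183 and 178 to 245 and 246 CPM in Melan-A, from 6.47 and 5.83 to 9.24 and 8.87 in B16F0 and from 3.60 and 3.25 to 7.39 and 7.66 in B16F10. These are fold changes of 1.36, 1.47 and 2.20 (log2 0.44, 0.56 and 1.13, SE 0.032, 0.069 and 0.083). Usp18 (chr6:121245906-121270917) rose from 100 and 103 to 196 and 197 CPM in Melan-A, from 2.15 and 2.20 to 3.52 and 3.01 in B16F0 and from 1.69 and 2.33 to 3.81 and 3.11 in B16F10. The libraries did not overlap in any line, and the fold changes were 1.93, 1.52 and 1.72. Parp14, an ADP-ribosyltransferase, fell from 17.1 and 18.6 to 14.7 and 12.1 CPM in Melan-A and from 7.16 and 6.65 to 4.43 and 4.27 in B16F10, by 0.42 (SE 0.084) and 0.66 (SE 0.11) on the log2 scale. In B16F0 it went from 10.4 and 10.1 to 8.07 and 8.37 CPM and fell by 0.32 (SE 0.096, adjusted p = 0.0057), a call lost without the first SX-682 library (-0.30, adjusted p = 0.054).

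Ifit1 rose with SX-682 from 88.7 and 85.0 to 152 and 148 CPM in Melan-A, from 5.19 and 5.34 to 7.27 and 7.06 in B16F0 and from 1.69 and 1.58 to 4.47 and 4.29 in B16F10. Ifit3 rose from 154 and 151 to 402 and 394 CPM in Melan-A, from 8.74 and 8.70 to 12.4 and 13.5 in B16F0 and from 4.43 and 4.80 to 8.67 and 8.12 in B16F10. No libraries overlapped, and the largest change was in B16F10 for Ifit1 (log2 0.79, 0.45 and 1.42) and in Melan-A for Ifit3 (log2 1.38, 0.56 and 0.86). Isg20 rose from 7.25 and 6.82 to 16.9 and 13.1 CPM in Melan-A, from 7.30 and 6.76 to 9.77 and 10.2 in B16F0 and from 1.57 and 1.47 to 4.53 and 4.27 in B16F10. Rsad2 (viperin, which makes an antiviral nucleotide) rose by log2 fold changes of 0.94, 0.43 and 0.57, and Bst2 by 0.36, 0.14 and 0.18. Cmpk2, the neighbouring nucleotide kinase of Rsad2, fell from 8.26 and 6.94 to 4.37 and 3.22 CPM in B16F0 and from 7.41 and 7.09 to 5.04 and 3.95 in B16F10. In Melan-A it went from 47.8 and 50.8 to 39.3 and 39.1 CPM, a call that DESeq2 did not make (log2 fold change -0.32, adjusted p = 0.079).

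The chains of the type I receptor changed in opposite directions with SX-682. Ifnar1 fell from 78.7 and 76.1 to 67.2 and 68.3 CPM in Melan-A, from 66.8 and 65.1 to 53.6 and 56.5 in B16F0 and from 82.3 and 82.8 to 56.6 and 55.3 in B16F10. Its treated libraries lay under the controls in each line (log2 fold changes -0.19, -0.26 and -0.56, SE 0.036 to 0.038). Ifnar2 was at 35.2 and 32.8 CPM in treated Melan-A, and it rose from 22.7 and 25.8 to 29.5 and 29.2 CPM in B16F0 and from 28.9 and 29.0 to 40.0 and 39.8 in B16F10 (log2 fold changes 0.28 and 0.46), and 9.46% of its exonic bases overlap Gm21970 on the same strand. Of the type II chains, Ifngr1 went from 19.9 and 22 to 17.3 and 19 CPM in B16F0, and that call (log2 fold change -0.21, adjusted p = 0.0067) was lost without the second control (-0.14, adjusted p = 0.15) or the first SX-682 library (-0.14, adjusted p = 0.17). Ifngr1 was at 40.2 and 41.9 CPM in treated Melan-A and 21.4 and 20.1 in treated B16F10, with log2 fold changes of -0.04 and 0.05 that did not pass (adjusted p = 0.62 and 0.55). Ifngr2 fell in both B16 lines, to 54.6 and 53 CPM and to 55.9 and 55.9, by 0.22 on the log2 scale in B16F0 and 0.16 in B16F10 (SE 0.044 each), and in Melan-A it was at 33 and 30 CPM with SX-682, a change of 0.06 (SE 0.047, adjusted p = 0.30).

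Jak2 rose with SX-682 to 87.3 and 89.1 CPM in Melan-A, 45.4 and 46 in B16F0, and to 51.4 and 52.5 in B16F10, by 0.33, 0.23 and 0.43 on the log2 scale (SE 0.035 to 0.040). Jak1 rose in B16, from 161 and 156 to 187 and 187 CPM in B16F0 and from 282 and 277 to 310 and 309 in B16F10 (log2 fold changes 0.23 and 0.15, SE 0.026 and 0.025). In Melan-A Jak1 was at 99.8 and 99 CPM with SX-682, under both controls, and that call (-0.10, adjusted p = 0.003) was lost without the second SX-682 library (-0.09, adjusted p = 0.055). Tyk2 fell in B16F0, from 52.8 and 51.2 to 44.9 and 46.8 CPM (log2 fold change -0.19, adjusted p = 0.0021). In B16F10 Tyk2 went from 43.3 and 44.6 to 39.2 and 39.7 CPM (-0.16, adjusted p = 0.0099, lost without the second control at -0.14, adjusted p = 0.074), and in Melan-A from 21.6 and 23.8 to 24.1 and 25.9 (0.14, adjusted p = 0.03, lost without the first control at 0.08, adjusted p = 0.33, or the second SX-682 library at 0.10, adjusted p = 0.28). Socs1 fell in B16F10, from 2.43 and 2.14 to 1.19 and 1.54 CPM (log2 fold change -0.75, SE 0.18, adjusted p = 0.00076), and its log2 fold changes of -0.13 in Melan-A and -0.43 in B16F0 did not pass (adjusted p = 0.42 and 0.26).

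**Figure D4:**
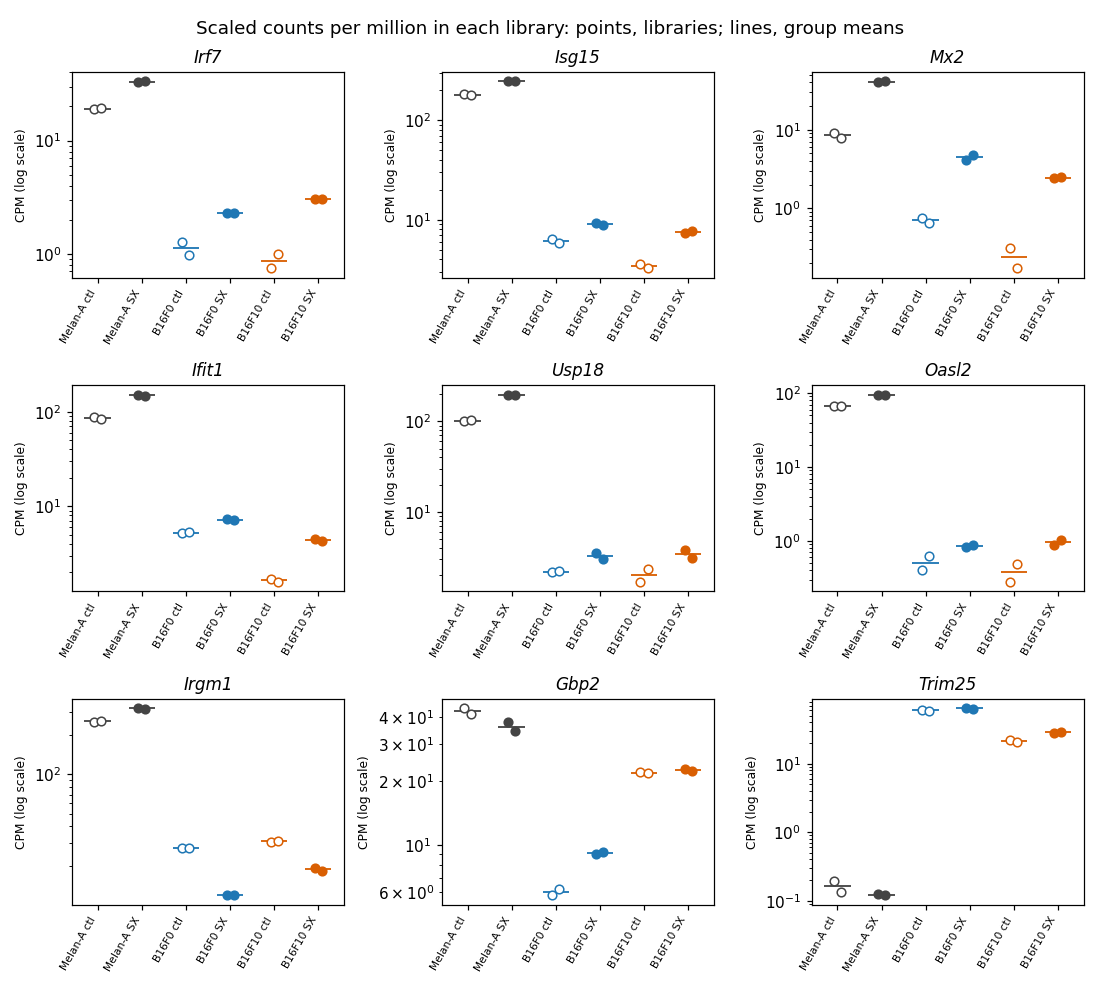
CPM of 9 members in each library on a log axis (open points, control; filled points, SX-682; lines, group means of 2 libraries). SX-682 libraries lie above their controls in all lines for Irf7, Isg15, Mx2, Ifit1, Usp18 and Oasl2, while Irgm1 rises to 319 and 317 CPM in Melan-A and falls to 11.9 in B16F0.

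Irgm1 and Samd9l moved in different directions in Melan-A and B16. Irgm1 rose from 252 and 256 to 319 and 317 CPM in Melan-A and fell from 27.4 in both controls to 11.9 in both treated libraries in B16F0, and from 30.5 and 30.9 to 19.1 and 18.4 CPM in B16F10. The groups did not overlap in any line, and the log2 fold changes were 0.33, -1.21 and -0.71 (SE 0.027, 0.045 and 0.041). The response difference (both B16 changes averaged, less the Melan-A change) was -1.28 (SE 0.041, adjusted p = 1.4e-20). Samd9l, a growth-restraining antiviral protein, rose from 161 and 155 to 219 and 214 CPM in Melan-A and fell from 25.5 and 26.8 to 19.7 and 18.7 in B16F0 and from 31.4 and 30.6 to 28.1 and 26.1 in B16F10. Its response difference was -0.77 (SE 0.047, adjusted p = 6.3e-14).

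Gbp2 and Stat2 also differed by line. Gbp2 rose from 5.77 and 6.21 to 9 and 9.26 CPM in B16F0, was at 22 and 21.8 and then 22.7 and 22.3 in B16F10 (log2 fold change 0.04, SE 0.062, adjusted p = 0.68), and went from 44.2 and 41.3 to 37.9 and 34.5 in Melan-A. The Melan-A call (-0.24, adjusted p = 0.00049) was lost without the second SX-682 library (-0.17, adjusted p = 0.054). Stat2 rose in Melan-A from 65.0 and 66.6 to 99.9 and 98.0 CPM (log2 fold change 0.59, SE 0.044), and in B16F10 it was at 14.8 and 13.7 and then 14.9 and 14.7 (0.05, SE 0.064, adjusted p = 0.53). In B16F0 it went from 25.1 and 23.2 to 22.5 and 20.5 CPM, and that call (-0.16, adjusted p = 0.017) was lost without the first control or the second SX-682 library (-0.10 in each, adjusted p = 0.24 and 0.23). Its response difference between B16 and Melan-A was -0.64 (SE 0.061, adjusted p = 7e-10).

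Of the other interferon-induced genes, Xaf1, which promotes apoptosis, rose from 53.3 and 55.4 to 80.4 and 82.2 CPM in Melan-A and from 2.86 and 2.35 to 5.36 and 4.41 in B16F10 (log2 fold changes 0.58 and 0.91). In B16F0 Xaf1 went from 2.30 and 2.39 to 2.88 and 3.45 CPM, the call given above as resting on single libraries. Ifi27, a mitochondrial and nuclear envelope protein, fell in Melan-A from 282 and 275 to 255 and 252 CPM (-0.13, adjusted p = 0.00054) and rose in B16F10 from 69.5 and 68 to 76.8 and 76.4 (0.16, adjusted p = 5e-04). In B16F0 Ifi27 went from 86.4 and 81.1 to 94 and 87.5 CPM, and that call (0.12, adjusted p = 0.0058) was lost without the second control (0.07, adjusted p = 0.18) or the first SX-682 library (0.06, adjusted p = 0.22). Ifi35 fell in B16F0 from 14.1 and 14.7 to 11.6 and 12.4 CPM (-0.27, adjusted p = 0.0012). Ifi35 was at 43.7 and 42.5 then 46.5 and 44 CPM in Melan-A and at 11.9 and 11.5 then 12.2 and 12.1 in B16F10, where its changes did not pass (adjusted p = 0.29 and 0.57).

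Trim25 rose with SX-682 in B16F10, from 21.9 and 20.8 to 28.3 and 29.4 CPM (log2 fold change 0.43, SE 0.055). In B16F0 it was at 60.7 and 59.3 and then 64.6 and 63.9 CPM (adjusted p = 0.087), and in Melan-A it had 9 and 9 counts with SX-682 (adjusted p = 0.46). Gbp7 went from 2.51 and 2.27 to 1.67 and 1.84 CPM in Melan-A, a call (-0.44, adjusted p = 0.021) lost without the first control (-0.36, adjusted p = 0.14) or the first SX-682 library (-0.37, adjusted p = 0.16). In treated B16F0 Gbp7 was at 3.29 and 3.72 CPM and in treated B16F10 at 5.11 and 6.03, and neither change passed (adjusted p = 0.30 and 0.054).

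Several members near the floor in B16 were called on few reads. Zbp1 went from 2 and 1 to 8 and 8 counts in B16F0, a ratio of 6.65 (95% counting interval 1.90 to 35.6), and from 7 and 4 to 0 and 1 in B16F10, where the ratio was 10.5 in the other direction (1.53 to 454). The B16F10 call was lost without the first control library (log2 fold change -2.66, adjusted p = 0.099), without the first SX-682 library (-2.26, adjusted p = 0.12) and in DESeq2 (-3.40, adjusted p = 0.052). Oas2 had 7 and 6 counts in untreated B16F0 and 24 and 11 with SX-682, and this call was lost without the first SX-682 library (log2 fold change 1.30, adjusted p = 0.09). Ifi44 rose in Melan-A from 32.6 and 32.3 to 72.1 and 68.8 CPM (log2 fold change 1.12, SE 0.059), and in B16F10 it had 0 and 0 counts untreated and 2 and 4 with SX-682. Oasl1 had more reads in B16 and rose there from 0.307 and 0.342 to 1.62 and 1.14 CPM in B16F0 and from 0.281 and 0.188 to 0.841 and 1.40 in B16F10. Its log2 fold changes were 2.11 (SE 0.32) and 2.25 (SE 0.35), and in Melan-A, with overlapping libraries, 0.24 (SE 0.22, adjusted p = 0.41).

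Over the members, the SX-682 change itself differed among the 3 lines for 41 of 54 (75.9%, against 47.4% of all genes). The response difference between B16 and Melan-A was higher for 13 and lower for 19 (all genes: 18.7% higher and 17.1% lower), with a median of -0.15 against 0.02. The change in B16F10 minus that in B16F0 was higher for 17 and lower for 6 (all genes: 15.3% higher and 14.9% lower), median 0.18 against 0.01. That count of 17 was 11 without the first SX-682 library of B16F10. Oasl1 rose more in B16 (both lines averaged) than in Melan-A by 1.94 on the log2 scale (SE 0.33, adjusted p = 2.1e-05). Isg15 did so by 0.41 (SE 0.063, adjusted p = 5.2e-06), mostly through B16F10 (log2 fold change 1.13, against B16F0 0.56 and Melan-A 0.44). Ifit1 rose more in B16F10 than in B16F0 by 0.98 (SE 0.14, adjusted p = 1.5e-06), Isg20 by 1.03 (SE 0.19, adjusted p = 8.8e-05) and Isg15 by 0.58 (SE 0.11, adjusted p = 0.00011).

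Members with the ISRE core were set beside those without it. Of the 17 tested with the core, 10 were higher and 2 lower with SX-682 in Melan-A, and of the 29 without it 18 and 4. Both shares stand beside 23.4% higher and 24.7% lower over all genes. In each B16 line 7 with the core were higher and 3 lower, against 15 higher and 9 lower (B16F0) or 7 lower (B16F10) without it. Over all genes 25.1% were higher and 25% lower in B16F0, and 25.5% and 25.3% in B16F10, and the counts lower are near those shares. In untreated cells the median log2 difference from Melan-A was -3.21 with the core and -1.58 without it in B16F0, and -3.05 and -1.34 in B16F10. These counts are descriptions, and windows beyond 250 bases were not searched.

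Some marker sums also moved with SX-682. Fibroblast markers summed to 93.5 to 94.7 CPM in treated Melan-A, 16.4 to 16.8 in B16F0 and 8.56 to 9.26 in B16F10. The leukocyte list summed to 46.6 to 48.1 CPM in treated Melan-A, of which Cd68 gave 43.9 and 45.3, to 14.3 to 16.2 in B16F0 and to 24.3 to 25.2 in B16F10. The melanocyte markers summed to 1350 CPM in treated Melan-A, against 1340 to 1370 untreated, with 2 of 7 higher and 4 lower: Sox10 went to 744 and 753 CPM and Tyrp1 to 143 and 143, while Dct went to 274 and 268 and Tyr to 0.308 and 0.253. All 7 were lower with SX-682 in each B16 line. The keratinocyte markers went from 5.50 to 6.03 CPM to 3.29 to 3.56 in Melan-A. In B16F0 the melanocyte markers summed to 18600 to 18700 CPM untreated and 15800 to 16000 treated, and in B16F10 to 24400 to 24500 and 14900 to 15200. The part of any of these marker lists in the changes of the members was not tested.

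Further genes of the pathway, 44 tested from a list of ligands, inducers of interferon, other kinases and STATs, inhibitors and other induced genes, followed the untreated pattern, with 37 lower and 4 higher in B16F0 than in Melan-A (all genes: 40.6% and 35.3%) and 35 lower and 7 higher in B16F10 (all genes: 40.8% and 33.4%). With SX-682, 18 were higher and 9 lower in Melan-A, 16 and 17 in B16F0, and 12 and 18 in B16F10, with medians of 0.13, 0.02 and -0.05. The shares over all genes were 23.4% higher and 24.7% lower in Melan-A, 25.1% and 25% in B16F0, and 25.5% and 25.3% in B16F10, and the number higher in B16F10 is near that share. Interferon transcripts were scarce: Ifnb1, which encodes interferon beta, had 11 and 6 counts in untreated Melan-A and 36 and 31 with SX-682, 0 and 0 then 4 and 3 in B16F0, and 0 and 0 then 0 and 2 in B16F10. The Melan-A rise (log2 fold change 2.23, SE 0.69, adjusted p = 0.0083) was lost without the second control (1.84, adjusted p = 0.12), the first SX-682 library (2.09, adjusted p = 0.13) or the second (2.37, adjusted p = 0.07), and that in B16F0 (adjusted p = 0.023) without any of its 4 libraries (adjusted p = 0.051 to 0.11). Ifna4, Ifna5, Ifng, Ifne and Ifnk had 8 counts or fewer in every library.

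Ddx60, a helicase that assists RIG-I, rose with SX-682 from 0.267 and 0.193 to 1.38 and 1.35 CPM in B16F0 and from 15.1 and 15.8 to 20.8 and 20.6 in Melan-A (log2 fold changes 2.55, SE 0.25, and 0.42, SE 0.09). In B16F10 it went from 0.198 and 0.172 to 0.330 and 0.547 CPM, a call lost without the second SX-682 library (0.83, adjusted p = 0.13). Trim34a, a TRIM-family protein, rose in all lines by log2 fold changes of 1.05, 0.96 and 1.67 (SE 0.11, 0.20 and 0.22). Gbp5 was at 0.533 and 0.737 CPM in Melan-A and changed by -0.05 there (adjusted p = 0.95). In B16F0 it had 4 and 8 counts and then 16 and 19 (adjusted p = 0.0098), in B16F10 7 and 6 and then 16 and 29 (adjusted p = 0.0076), calls lost without the first control (1.38, adjusted p = 0.12) or the second SX-682 library (1.5, adjusted p = 0.086) of B16F0 and without the second control (1.69, adjusted p = 0.056) or the second SX-682 library (1.32, adjusted p = 0.12) of B16F10. Iigp1, an immunity-related GTPase like Irgm1, had 8 and 7 counts in untreated B16F10 and 2 and 1 with SX-682 (adjusted p = 0.017, lost without the first control, adjusted p = 0.07, or the second SX-682 library, adjusted p = 0.11), against 473 and 512 and then 413 and 487 in Melan-A.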

How the data were processed

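RNA-seq libraries of Melan-A, B16F0 and B16F10 cells, untreated or with SX-682, were analysed as 6 groups of 2 libraries, grouped by GEO's labels. The authors deposited raw counts per gene, 1 column for each library, with no normalization. The submitters' processing notes name cutadapt, STAR, DESeq2 and mm10, and the counting program, its strand setting and the versions are not given in the sources used here, so reads of overlapping genes may not be told apart. Gene models of GENCODE M21 were used for overlaps and shared 50-base stretches.

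Counts of 34513 genes were fitted in 1 model of 12 libraries with edgeR 4.0.16 in R 4.3.3 (TMM scaling, filterByExpr leaving 18338 genes, quasi-likelihood test, Benjamini-Hochberg adjustment over all genes tested, calls at an adjusted p under 0.05, prior count 0.125, residual degrees of freedom 6). All adjusted p-values are from this test unless DESeq2 1.42.0 is named. Fold changes have standard errors from the fit. Ratios on few counts have 95% intervals that cover counting error only. The depth of 48876982 to 85322092 counts places 3 counts at 0.033 to 0.062 CPM. The procedure was tested on simulated counts in which far fewer genes changed than were called here. That test does not show how the scaling behaves when many genes change.

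The members, lists and tests were chosen with earlier results of these data known. Values in the libraries compared were given for up to 3 members of each role group with the largest SX-682 change, called, with non-overlapping libraries and a mean log2 CPM of at least 0. They were also given for the 4 largest untreated differences from Melan-A in each direction, for members called in opposite directions by at least 0.5 in both lines, for the receptors and kinases, and for the interferon genes and up to 4 others of the pathway list. Ifit3, Stat2, Samd9l, Cmpk2, Irf9, Gbp3, Igtp, Rsad2, Bst2 and Irf2, and the genes ordered by level per kilobase, were added after their values were seen. Alternatives were RLE scaling, no low-count filter, at least 10 counts in every library, DESeq2, a prior count of 2, a replicate block, separate fits and each library left out. The control and SX-682 libraries of the same number did not deviate together (correlations of -0.0281, 0.0522 and -0.00695 over 9908 genes), and nothing in the labels pairs them.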

Additional observations from a re-analysis of the deposited data

Results flagged for a closer look

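The response to SX-682 was compared between lines by a direct test of the difference in the same edgeR quasi-likelihood fit, with Benjamini-Hochberg adjustment, and the members described here that passed are listed with the difference in log2 fold change. Between B16 (both lines averaged) and Melan-A 23 members passed. The change was more positive in B16 for Oasl1 (1.94), Irf5 (0.87), Mx2 (0.72), Irf7 (0.60), Gbp2 (0.56), Oasl2 (0.52), Isg15 (0.41), Irf1 (0.39), Jak1 (0.29), Ifi27 (0.27), Gbp3 (0.26) and Ifnar2 (0.18). It was more negative in B16 for Irgm1 (-1.28), Samd9l (-0.77), Ifit3 (-0.67), Stat2 (-0.64), Cmpk2 (-0.50), Rsad2 (-0.44), Tyk2 (-0.31), Ifngr2 (-0.25), Ifnar1 (-0.22), Bst2 (-0.20) and Ifi35 (-0.18). These averages can hide a difference between the B16 lines. Ifi35 fell only in B16F0 (log2 fold change -0.27), with B16F10 at 0.05 and Melan-A at 0.07. For Isg15 (B16F0 0.56, B16F10 1.13, Melan-A 0.44) and Ifnar1 (-0.26, -0.56, -0.19) most of the gap came from B16F10. For Gbp2 (0.61, 0.04, -0.24) B16F0 gave the larger part. Irgm1 (-1.21, -0.71, 0.33) and Oasl1 (2.11, 2.25, 0.24) lay far from Melan-A in both B16 lines. Their responses were not tested singly against Melan-A. With no low-count filter Gbp3 (0.24, adjusted p = 0.12), Ifi35 (-0.19, adjusted p = 0.066) and Ifnar2 (0.17, adjusted p = 0.062) were lost. Gbp3 was also lost with RLE scaling (0.25, adjusted p = 0.053). Some of the differences rest on single libraries. Irf5 was lost without the second Melan-A control (0.48, adjusted p = 0.24) or the second treated Melan-A library (0.74, adjusted p = 0.06), Mx2 without the second B16F10 control (0.52, adjusted p = 0.054), and Oasl2 without the first control of B16F0 (0.36, adjusted p = 0.15), the first of B16F10 (0.35, adjusted p = 0.17) or the second treated B16F10 library (0.46, adjusted p = 0.079). Gbp3, Ifi35 and Ifnar2 were lost without any 1 of several libraries, with the highest adjusted p for Gbp3 without the second control of B16F0 or of B16F10 (0.19 in each, adjusted p = 0.20), for Ifi35 without the first treated Melan-A library (-0.15, adjusted p = 0.21) and for Ifnar2 without the second treated Melan-A library (0.12, adjusted p = 0.26).

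Between B16F10 and B16F0 18 members passed. The change was more positive in B16F10 for Isg20 (1.03), Ifit1 (0.98), Irf7 (0.79), Isg15 (0.58), Xaf1 (0.50), Irgm1 (0.49), Irf9 (0.46), Trim25 (0.33), Ifi35 (0.32), Ifit3 (0.30), Ifngr1 (0.26), Samd9l (0.25), Jak2 (0.20) and Irf1 (0.18), and more negative for Zbp1 (-5.78), Oas2 (-2.23), Gbp2 (-0.57) and Ifnar1 (-0.30). The values of Zbp1 and Oas2 are fitted on groups of few counts, and that of Zbp1 depends on the prior count (-3.40 with a prior count of 2). Separate fits did not call Irf7 (0.77, adjusted p = 0.066), Xaf1 (0.47, adjusted p = 0.14) or Ifit3 (0.28, adjusted p = 0.12). Nor did they call Ifngr1 (0.24, adjusted p = 0.053), Irf1 (0.16, adjusted p = 0.075) or Oas2 (-2.23, adjusted p = 0.13). Irf1 and Oas2 were also lost with no low-count filter (adjusted p = 0.061 and 0.082), and Irf1 with RLE scaling (adjusted p = 0.054). Irf7 was lost without the first control of B16F0 (0.57, adjusted p = 0.13) or of B16F10 (0.60, adjusted p = 0.092), Samd9l without the first treated B16F10 library (0.19, adjusted p = 0.061), and Ifi35 without the first treated B16F0 library (0.26, adjusted p = 0.079) or the second B16F10 control (0.29, adjusted p = 0.051). Xaf1, Ifit3, Ifngr1, Irf1 and Oas2 were lost without any 1 of several libraries, with the highest adjusted p for Xaf1 without the first treated B16F0 library (0.35, adjusted p = 0.21), Ifit3 without the first B16F10 control (0.24, adjusted p = 0.12), Ifngr1 without the first treated B16F0 library (0.18, adjusted p = 0.20), Irf1 without the first treated B16F10 library (0.13, adjusted p = 0.18) and Oas2 without the first B16F10 control (-1.62, adjusted p = 0.30).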

How the results depend on the processing

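For 45 named genes and their 262 results, 4908 alternative values were computed, of which 4757 kept their direction and call, 151 kept their direction and lost the call, and 0 changed sign. Members lower with SX-682 in Melan-A numbered 9, and 5 to 9 with 1 library left out, the lowest without the second treated Melan-A library. Members higher in untreated B16F10 than in Melan-A numbered 8, and 5 with at least 10 counts in every library, a filter that leaves fewer genes tested. Members whose change was more positive in B16F10 than in B16F0 numbered 17, 11 with separate fits, and 11 to 17 with 1 library left out, the lowest without the first treated B16F10 library. The cause of these was not tested. The replicate block moved the number of members called to 38 from 39 between untreated B16 lines, to 30 from 32 for B16 against Melan-A responses (Ifi35 at -0.18, adjusted p = 0.056, and Gbp3 at 0.26, adjusted p = 0.055, lost their calls) and to 24 from 23 for B16F10 against B16F0 responses, and in the other 5 comparisons the numbers were equal; same-numbered libraries did not deviate together. Members higher in all 3 lines numbered 14 to 17 with 1 library left out. With 2 libraries a group and B16 groups at or near 3 counts, changes of Zbp1, Oas2, Oas3, Ifi44 and Ifitm1 in B16 are limited by depth.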
